A study of Homo sapiens with 6 samples.

Results

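The HOX genes and their closest noncoding and homeobox companions were examined in HAP1 cells with and without substitutions in CTCF. The members were chosen by name from the 57773 genes of the count table: every symbol of HOXA, HOXB, HOXC or HOXD followed by digits only (39 genes), plus the homeobox genes EVX1 and EVX2 and the long noncoding RNA genes HOTAIR and HOTTIP, 43 genes in all. HOXA held 13 of them and HOXB, HOXC and HOXD 10 each. In the GENCODE v29 annotation of GRCh38 they lay on chromosome 7 at HOXA and spanned 200.7 kb of chromosome 17 (48528526 to 48729178) at HOXB. At HOXC they spanned 117.3 kb of chromosome 12 (53938765 to 54056030) and at HOXD 113.4 kb of chromosome 2 (176077472 to 176190907).

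HAP1 is a near-haploid human cell line derived from a chronic myeloid leukaemia, and it has lost many features of blood cells. The study compared wild-type HAP1 cells with HAP1 cells in which CTCF carries Y226A and F228A, each in 3 libraries, both grown in the same medium and sequenced as polyadenylated RNA. The edit was made with a Cas9 plasmid, a guide to CTCF and a repair oligonucleotide, followed by puromycin selection and sequencing of clones. The 3 mutant libraries share 1 number in their descriptions, and the labels do not say that they came from separate clones or cultures. The substitutions and the state of an edited clone therefore cannot be told apart, and p-values measure only the spread between these libraries.

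HOX genes encode homeodomain transcription factors that give cells their position along the body axis. Their order in each cluster, from paralogue group 1 at the 3′ end to group 13 at the 5′ end, follows where and when they are used in the embryo. Within the clusters, domains marked by Polycomb and by Trithorax proteins lie side by side, and CTCF bound between genes is known at several HOX clusters to mark the borders of such domains. CTCF also anchors chromatin loops together with cohesin, and the study concerns the structure that holds those loops.

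Libraries held 7764009 to 9610028 gene counts, so that 3 counts corresponded to 0.312 to 0.386 CPM in 1 library. CPM scales the counts of a gene by the total of its library, here after TMM normalization. Of 10 blood cell markers, 5 (PTPRC, GATA1, SPI1, HBG1 and MPO) had 0 counts in all 6 libraries. The summed marker level was 14.5 to 17.1 CPM in the wild type and 11.7 to 15.7 CPM in the mutant, most of it from ITGA2B, with 390 wild-type and 338 mutant counts. CTCF itself was measured at 105.3, 110.5 and 110.8 CPM in the wild type and at 131.1, 139.3 and 134.3 CPM in the mutant (log2 fold change 0.31, edgeR adjusted p = 4.20e-04), which carries no information on the substitutions themselves.

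Of the 43 members, 25 had enough counts to be tested, 11 had more than 3 counts in all but were not tested, 5 had 1 to 3 counts in all and 2 had none. The test was edgeR's quasi-likelihood F test with Benjamini-Hochberg adjustment over all 14835 tested genes, and a gene was called at an adjusted p under 0.05. Among the 25 tested members, 6 were called higher in the mutant (HOXA13, HOTTIP, EVX1, HOXB6, HOXD3 and HOXD8) and 2 lower (HOXC10 and HOXD13). Over all tested genes 21.2% were called, 11.9% higher and 9.26% lower, so the 8 calls among 25 are to be read against that background. The tested members had a median log2 fold change of 0.05, beside -0.00097 over all tested genes. The 3 mutant and 3 wild-type values did not overlap for 10 of the 25 tested members, beside 35.5% of all tested genes. At an unadjusted p under 0.05 stood 11 of the 25, beside 32.6% of all tested genes. These members passed the count filter partly through their own level, so the counts describe the tested members and not the clusters as a whole. As in any bulk sample, fewer cells expressing a gene and less RNA per cell cannot be told apart.

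**Figure D1:**
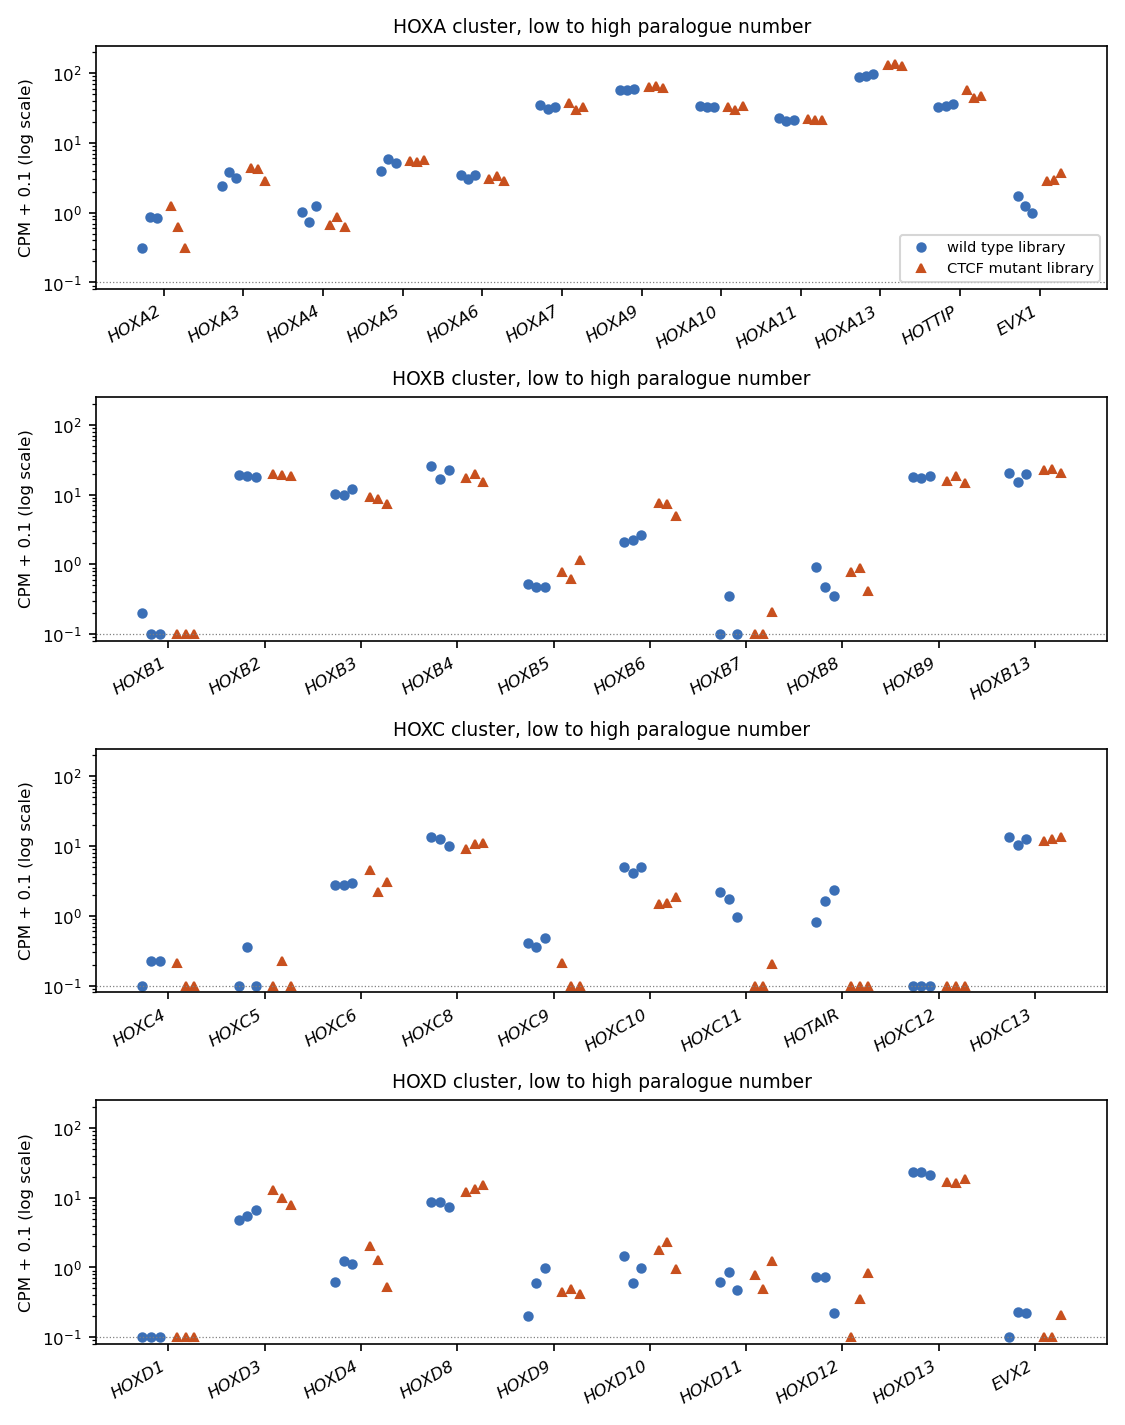
CPM plus 0.1 (log axis) of the members in each library, by cluster and from low to high paralogue number. Circles are the 3 wild-type and triangles the 3 mutant libraries, and points on the dotted line are libraries with 0 counts. HOXA13 sits highest, at 89.6 to 96.6 CPM in the wild type and 128.5 to 136.5 CPM in the mutant, and the mutant points of HOTAIR all lie on the line.

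At the 5′ end of HOXA, HOXA13, HOTTIP and EVX1 were all higher in the mutant, while the tested members from HOXA3 to HOXA11 were not called. These were the 3 calls among 11 tested HOXA members, beside 21.2% called over all tested genes. Their place side by side was not tested. Among genes of HOXA that are not members, HOXA10-AS and ENSG00000253508 were called higher and HOTAIRM1 lower, with values given further on. HOXA10-AS shares exon bases with HOXA9 and HOXA10 and does not lie among the called members. HOXA13 encodes the homeodomain factor of the most distal limb and the hindgut, and HOTTIP is a noncoding RNA transcribed in the opposite direction from beside HOXA13 and known for its link to the WDR5 and MLL complex. EVX1, an even-skipped-type homeobox gene, lies beyond HOTTIP. The promoter windows of HOXA13 and HOTTIP are shown because both genes moved and because these windows share bases. In RefSeq (GRCh38.p14), the HOXA13 start site on the minus strand at 27200091 and the HOTTIP start site on the plus strand at 27200421 of chromosome 7 were 330 bases apart. The windows, each running from 250 bases before to 50 bases after the start, covered chr7:27200042-27200341 (minus strand) and chr7:27200171-27200470 (plus strand). The 171 bases that they have in common, read on opposite strands, are in capitals.
HOXA13: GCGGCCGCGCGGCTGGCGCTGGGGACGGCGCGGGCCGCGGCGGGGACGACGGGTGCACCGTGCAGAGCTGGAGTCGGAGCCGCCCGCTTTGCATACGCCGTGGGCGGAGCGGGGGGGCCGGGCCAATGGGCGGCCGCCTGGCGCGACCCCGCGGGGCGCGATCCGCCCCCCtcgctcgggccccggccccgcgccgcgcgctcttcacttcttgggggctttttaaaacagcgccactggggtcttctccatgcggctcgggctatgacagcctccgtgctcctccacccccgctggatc
HOTTIP: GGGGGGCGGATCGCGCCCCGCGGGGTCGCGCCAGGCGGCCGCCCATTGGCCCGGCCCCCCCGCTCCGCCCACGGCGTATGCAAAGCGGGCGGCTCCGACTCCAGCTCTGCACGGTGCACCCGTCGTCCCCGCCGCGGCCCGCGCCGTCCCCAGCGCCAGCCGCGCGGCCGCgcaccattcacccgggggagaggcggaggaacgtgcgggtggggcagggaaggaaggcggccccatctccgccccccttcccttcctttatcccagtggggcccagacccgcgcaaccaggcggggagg

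HOXA13 was measured at 89.6, 90.3 and 96.6 CPM in the wild type and at 132.3, 136.5 and 128.5 CPM in the mutant. The groups were wholly apart, with the lowest mutant library above the highest wild-type library. The level rose from 92.2 ± 3.86 CPM in the wild type to 132.5 ± 4.01 CPM (means with SD over 3 libraries a group), 1.44-fold, with a log2 fold change of 0.52 (SE 0.060, edgeR adjusted p = 1.00e-06). HOTTIP was measured at 33.1, 34.0 and 36.6 CPM in the wild type and at 56.7, 44.5 and 46.5 CPM in the mutant. The groups did not overlap here either, and mutant replicate 1 was the highest library. HOTTIP rose from 34.6 ± 1.78 to 49.2 ± 6.53 CPM, 1.43-fold, with a log2 fold change of 0.51 (SE 0.093, edgeR adjusted p = 3.31e-04).

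The ratio of HOTTIP to HOXA13 counts, computed after the values were seen, was 0.370, 0.376 and 0.378 in the wild type and 0.428, 0.326 and 0.361 in the mutant. These ranges overlapped, with the mutant spread the wider. Against HOXA11, the next tested member on the other side, HOXA13 counts stood at 3.90, 4.37 and 4.58 to 1 in the wild type and at 6.05, 6.32 and 6.01 to 1 in the mutant, with no overlap. HOXA11 was not called, so this gap adds nothing to the HOXA13 call. In GENCODE v29 the exons of HOXA13 and HOTTIP overlap on opposite strands over 1.7% of the bases of each.

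EVX1 had 16, 9 and 7 counts in the wild type and 24, 22 and 34 counts in the mutant. It was a low gene, at 1.66, 1.14 and 0.880 CPM in the wild type and at 2.74, 2.85 and 3.58 CPM in the mutant, again without overlap. EVX1 rose from 1.23 ± 0.396 to 3.05 ± 0.460 CPM, 2.44-fold, with a log2 fold change of 1.28 (SE 0.299, edgeR adjusted p = 0.00326). EVX1 passed the count filter through its mutant libraries, since all 3 of these but only 1 wild-type library reached the 1.20 CPM that the filter asks for. An antisense gene, EVX1-AS, covers 15.9% of the EVX1 exon bases, and whether strand was used in the counting is not stated. The EVX1 window, chr7:27242552-27242851 on the plus strand, is shown as the contrast to the GC-rich pair above, with its CCAAT match in capitals.
EVX1: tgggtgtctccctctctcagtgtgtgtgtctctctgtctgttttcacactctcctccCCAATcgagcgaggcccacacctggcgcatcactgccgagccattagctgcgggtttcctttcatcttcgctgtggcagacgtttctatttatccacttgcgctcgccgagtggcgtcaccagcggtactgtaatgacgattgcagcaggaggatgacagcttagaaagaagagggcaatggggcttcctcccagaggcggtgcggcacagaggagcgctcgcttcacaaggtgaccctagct

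The HOXA13 and HOTTIP windows were 76.3% and 78.0% GC with 44 and 41 CpG dinucleotides, and the EVX1 window was 57.0% GC with 17. Over all 35116 RefSeq windows the median was 58.7% GC with 14 CpG, and over the 30 windows found for 23 members (29 of them distinct, as HOXC4 and HOXC5 have the same window, and 7 from HOXA3 alone) it was 57.5% GC with 21.5 CpG. A CTCF core, written as CCA, any 2 bases, AG, any 2 bases and GGC, was searched on both strands and was found in 2.41% of all windows and in 1 of the 29 distinct member windows, at HOXA10. CCAAT on either strand lay in 34.6% of all windows and in 19 of the 29, including those of HOXA13, HOTTIP and EVX1. The HOXA13 and HOTTIP windows hold the same match, which lies in the bases common to both and so is counted in each. TATAAA on either strand lay in 11.5% of all windows and in 6 of the 29. No window was found for HOXB6, HOXC10, HOXC11 or HOTAIR. HOXB was covered by HOXB1 alone and HOXC by the window of HOXC4 and HOXC5, so these counts mostly describe HOXA and HOXD. A match of letters is a description of the window and not a binding site.

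The remaining HOXA genes gave narrower results. HOXA9, a factor of blood progenitors and posterior patterning, was measured at 57.1, 56.7 and 59.4 CPM in the wild type and at 64.3, 65.4 and 61.6 CPM in the mutant. Its groups did not overlap, but it was not called (log2 fold change 0.14, edgeR adjusted p = 0.162). HOXA7 ran from 30.7 to 34.7 CPM in the wild type and from 29.4 to 37.2 CPM in the mutant, with a log2 fold change of 0.01 and a 95% interval of -0.19 to 0.21. HOXA7 shares 62.5% of its exon bases with the antisense gene HOXA-AS3. HOXA10 ran from 32.3 to 33.5 CPM in the wild type and from 29.6 to 34.1 CPM in the mutant (log2 fold change -0.02, interval -0.20 to 0.16). HOXA11, the HOX gene next to HOXA13, ran from 20.7 to 23.0 CPM and from 21.4 to 21.9 CPM (log2 fold change -0.0025, interval -0.21 to 0.21). For HOXA7, HOXA9, HOXA10 and HOXA11 the intervals thus stayed within a 1.5-fold change in either direction.

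At the 3′ side, HOXA3 (2.28 to 3.68 CPM in the wild type, 2.74 to 4.22 CPM in the mutant), HOXA5 (3.83 to 5.71 and 5.30 to 5.58 CPM) and HOXA6 (2.92 to 3.42 and 2.74 to 3.23 CPM) all overlapped between the groups. Their log2 fold changes were 0.31, 0.18 and -0.13, and none was called. HOXA2 with 2 to 10 counts and HOXA4 with 5 to 9 counts per library were not tested.

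**Figure D2:**
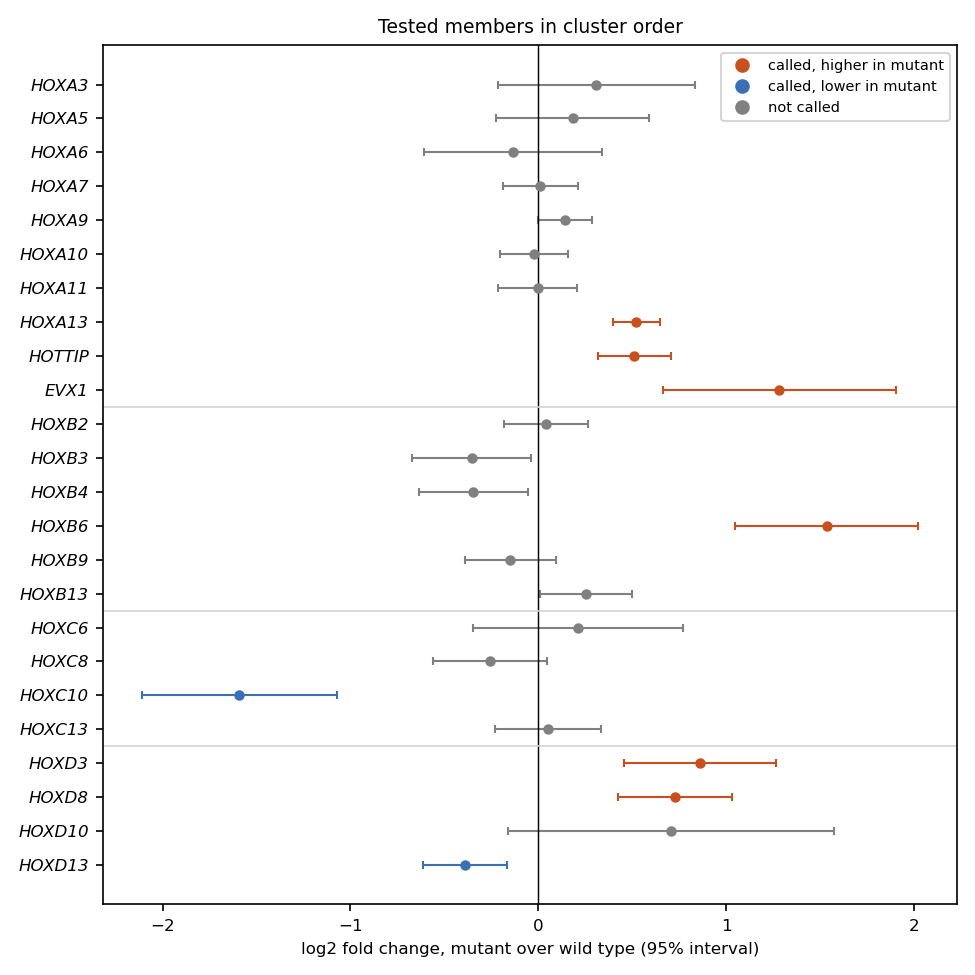
Fitted log2 fold change (mutant over wild type) of tested members with 95% intervals, in cluster order from HOXA at the top to HOXD at the bottom. Orange points are called higher, blue points called lower and grey points not called. The 3 calls of HOXA sit together at its 5′ end, and 21.2% of all tested genes were called. HOXC10 at -1.59 and HOXB6 at 1.54 lie farthest from 0.

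At HOXC, a stretch around HOXC10, HOXC11 and HOTAIR had fewer counts in the mutant, while HOXC13 on one side and HOXC8 on the other were not called. The stretch and its borders were read from these same values and were not tested. By the main test 1 of 4 tested HOXC members was called, beside 21.2% of all tested genes. HOXC10 is a posterior factor of the lumbar region and hindlimb, and HOTAIR is the noncoding RNA between HOXC11 and HOXC12 known for its association with Polycomb proteins. HOXC10 had 48, 32 and 39 counts in the wild type and 12, 11 and 17 counts in the mutant. Every mutant library lay below every wild-type library. In CPM, HOXC10 fell from 4.65 ± 0.508 to 1.53 ± 0.230, 3.01-fold, with a log2 fold change of -1.59 (SE 0.249, edgeR adjusted p = 6.12e-05). Same-strand overlap with other genes covers 7.1% of the HOXC10 exon bases.

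HOTAIR had 7, 12 and 18 counts in the wild type and 0 counts in all 3 mutant libraries. Against a floor of 3 counts over the mutant group, and with the wild-type counts taken as exact, HOTAIR was at least 12.6-fold lower in the mutant. HOXC11 had 20, 13 and 7 counts in the wild type and 0, 0 and 1 in the mutant, a wild-type to mutant ratio of 40.8 with a 95% counting interval of 6.91 to 1651. Neither gene passed the filter on low counts of the main test. When all genes with at least 1 count were tested, edgeR called HOTAIR (adjusted p = 2.02e-09) and HOXC11 (adjusted p = 1.15e-08) lower. HOTAIR entered that test only through its wild-type counts, and HOXC11 had 1 mutant count in all. These 2 calls therefore describe the counts above and add nothing to them. The test of all genes with at least 1 count called 13.6% of 25665 genes. It also called HOXB4 lower, so that members called lower numbered 5 rather than 2, while those called higher numbered 6 again. HOXC9 had too few counts for a firm statement, with 3, 2 and 3 counts in the wild type and 1, 0 and 0 in the mutant (ratio 8.16, interval 1.09 to 362). HOTAIR and HOXC11 share no exon bases with other genes of the count table.

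The bordering genes give the frame for that stretch. HOXC13, a factor of hair and nail, was measured at 13.6, 10.3 and 12.6 CPM in the wild type and at 11.9, 12.7 and 13.4 CPM in the mutant. The groups overlapped, and HOXC13 was not called (log2 fold change 0.05, interval -0.23 to 0.33, edgeR adjusted p = 0.836). HOXC8 was measured at 13.5, 12.6 and 10.1 CPM in the wild type and at 9.01, 10.5 and 10.9 CPM in the mutant. It was not called (log2 fold change -0.26, interval -0.56 to 0.045, edgeR adjusted p = 0.232). That interval reaches well below 0, so the absence of a call does not show where the stretch ends. Relative to HOXC13 in the same library, HOXC10 counts were 0.366, 0.395 and 0.390 in the wild type and 0.115, 0.112 and 0.134 in the mutant. That ratio was chosen after the values were seen. It sets a called gene against one not called, so its gap between the groups adds nothing to the HOXC10 call.

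HOXC6 had 26, 21 and 23 counts in the wild type and 39, 16 and 28 in the mutant, whose range enclosed that of the wild type (log2 fold change 0.21, edgeR adjusted p = 0.638). HOXC4 and HOXC5 had at most 2 counts in any library, and HOXC12 had 0 counts in all 6. HOXC4, HOXC5 and HOXC6 share exon bases with each other or with other genes (17.8%, 59.9% and 15.7%), which leaves their counts uncertain.

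**Figure D3:**
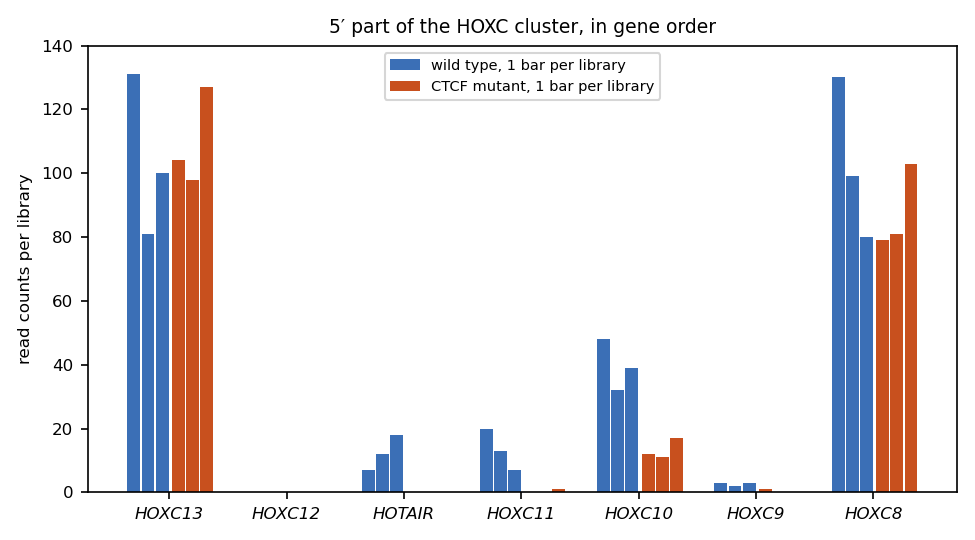
Read counts of 7 neighbouring HOXC members in gene order from HOXC13 to HOXC8, 1 bar per library. Wild-type bars are blue and mutant bars orange; HOTAIR has no mutant bar, HOXC11 has 1 mutant count in all and HOXC10 drops from 32 to 48 counts to 11 to 17, between HOXC13 and HOXC8, whose groups overlap.

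At HOXB, 1 of 6 tested members was called, a share near the 21.2% of all tested genes. HOXB6, a middle-group factor of the trunk, had 19, 17 and 20 counts in the wild type and 65, 55 and 46 counts in the mutant. All mutant libraries were above all wild-type libraries. In CPM, HOXB6 rose from 2.21 ± 0.277 to 6.46 ± 1.40, 2.90-fold, with a log2 fold change of 1.54 (SE 0.234, edgeR adjusted p = 4.52e-05). Exon sharing bears on this gene: 16.6% of its exon bases overlap HOXB3 on the same strand and 16.3% overlap the antisense gene HOXB-AS3 on the other. Beside HOXB9 in the same library, HOXB6 counts were 0.112, 0.124 and 0.137 in the wild type and 0.475, 0.393 and 0.331 in the mutant, a ratio chosen after the values were seen. HOXB9 was not called, so this ratio adds nothing to the HOXB6 call.

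HOXB4, a factor used in blood stem cells, was measured at 25.9, 16.6 and 22.8 CPM in the wild type and at 17.1, 19.7 and 15.3 CPM in the mutant. Wild-type replicate 2 fell within the mutant range, and HOXB4 was not called (log2 fold change -0.34, edgeR adjusted p = 0.0895). Without wild-type replicate 2, HOXB4 had a log2 fold change of -0.50 and was called lower (edgeR adjusted p = 0.00703), and with no filter beyond 1 count it was also called (adjusted p = 0.0268). HOXB3 was measured at 10.3, 9.64 and 12.1 CPM in the wild type and at 9.23, 8.53 and 7.27 CPM in the mutant. Its groups lay apart, but it did not pass the adjusted test (log2 fold change -0.35, edgeR adjusted p = 0.106).

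HOXB2 ran from 17.7 to 19.2 CPM in the wild type and from 18.4 to 19.9 CPM in the mutant (log2 fold change 0.04). HOXB9 ran from 17.4 to 18.4 CPM and from 14.6 to 18.1 CPM (log2 fold change -0.15). HOXB13, the most 5′ gene of this cluster and a factor of prostate and hindgut, ran from 15.1 to 20.2 CPM and from 20.1 to 23.2 CPM (log2 fold change 0.25, edgeR adjusted p = 0.140). None of the 3 was called, and each had an interval within a 1.5-fold change. Of the low genes, HOXB5 had 3 to 4 counts in the wild type and 4 to 10 in the mutant, HOXB8 had 2 to 8 counts per library, HOXB7 0 to 2 and HOXB1 a single count in all.

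At HOXD, genes of both directions stood in 1 cluster: HOXD3 and HOXD8 were higher in the mutant and HOXD13 was lower. These were the calls among 4 tested HOXD members, beside 21.2% called over all tested genes. With so few tested members, nothing about the cluster can be read from that count. HOXD13 patterns the digits and HOXD3 the neck region, and HOXD8 is the middle-group gene between them. HOXD3 had 46, 43 and 53 counts in the wild type and 114, 77 and 73 counts in the mutant. The groups did not overlap, and mutant replicate 1 stood highest. HOXD3 rose from 5.63 ± 0.959 to 10.2 ± 2.66 CPM, 1.82-fold, with a log2 fold change of 0.86 (SE 0.195, edgeR adjusted p = 0.00258). Antisense genes cover 14.6% of the HOXD3 exon bases.

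HOXD8 had 84, 67 and 57 counts in the wild type and 105, 101 and 146 counts in the mutant. In CPM it rose without overlap from 8.12 ± 0.837 to 13.5 ± 1.74, 1.66-fold, with a log2 fold change of 0.73 (SE 0.147, edgeR adjusted p = 8.88e-04). HOXD13 was measured at 23.3, 23.5 and 20.9 CPM in the wild type and at 16.6, 16.4 and 18.5 CPM in the mutant. Here each mutant library lay below each wild-type library. HOXD13 fell from 22.6 ± 1.46 to 17.2 ± 1.17 CPM, 1.31-fold, with a log2 fold change of -0.39 (SE 0.108, edgeR adjusted p = 0.0121). HOXD8 and HOXD13 share no exon bases with other genes of the count table.

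Within a library, HOXD8 counts were 0.373, 0.362 and 0.343 of the HOXD13 counts in the wild type and 0.719, 0.795 and 0.829 in the mutant. This ratio was chosen after the values were seen and sets a gene called higher against one called lower, so its gap between the groups adds nothing to those calls. The ratio of HOXD3 to HOXD8 counts overlapped, at 0.548, 0.642 and 0.930 in the wild type and 1.09, 0.762 and 0.500 in the mutant. Between HOXD8 and HOXD13, HOXD10 had 13, 4 and 7 counts in the wild type and 15, 17 and 8 in the mutant and was not called (log2 fold change 0.71, SE 0.417, edgeR adjusted p = 0.253). HOXD4 (4 to 17 counts per library), HOXD9 (1 to 7), HOXD11 (3 to 11) and HOXD12 (0 to 7) were not tested, EVX2 had 0 or 1 count per library, and HOXD1 had none. These genes were too low to be tested in the main fit at this depth, so no statement on a difference in them is made.

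The windows of the 3 called HOXD genes are shown because these genes moved in opposite directions within 1 cluster. They lie on the plus strand at chr2:176157057-176157356 (HOXD3), chr2:176129455-176129754 (HOXD8) and chr2:176092471-176092770 (HOXD13), in RefSeq coordinates of GRCh38.p14. Capitals mark matches to CCAAT and TATAAA on either strand.
HOXD3: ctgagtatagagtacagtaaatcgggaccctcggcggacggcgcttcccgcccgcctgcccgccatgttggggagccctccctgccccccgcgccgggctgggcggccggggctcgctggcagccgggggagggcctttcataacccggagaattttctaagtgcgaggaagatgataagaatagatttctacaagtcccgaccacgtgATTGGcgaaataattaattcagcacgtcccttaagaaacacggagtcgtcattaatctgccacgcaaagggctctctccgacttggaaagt
HOXD8: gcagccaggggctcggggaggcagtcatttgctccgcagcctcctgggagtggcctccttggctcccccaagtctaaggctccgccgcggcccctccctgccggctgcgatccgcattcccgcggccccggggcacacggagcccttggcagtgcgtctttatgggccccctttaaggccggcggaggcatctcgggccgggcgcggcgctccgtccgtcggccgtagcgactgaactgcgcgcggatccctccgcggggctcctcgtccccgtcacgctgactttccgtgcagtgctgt
HOXD13: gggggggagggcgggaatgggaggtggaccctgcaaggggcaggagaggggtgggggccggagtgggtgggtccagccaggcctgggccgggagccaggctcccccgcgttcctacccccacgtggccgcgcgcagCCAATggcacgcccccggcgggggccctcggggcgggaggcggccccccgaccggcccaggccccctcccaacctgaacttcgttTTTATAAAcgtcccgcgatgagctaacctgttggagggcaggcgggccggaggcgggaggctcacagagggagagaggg

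The HOXD13 window held a CCAAT match and a pair of overlapping TATAAA matches on the 2 strands, the HOXD3 window held a CCAAT match and the HOXD8 window held neither motif. Their GC content was 74.0%, 58.0% and 71.7% with 24, 25 and 34 CpG, in the order HOXD13, HOXD3 and HOXD8. None of these windows held the CTCF core letters.

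Summed over all members of a cluster, tested or not, HOXA stood at 290.6, 288.4 and 301.4 CPM in the wild type and at 368.3, 349.0 and 347.6 CPM in the mutant. The HOXA sum thus lay higher in every mutant library, at 355 ± 11.6 CPM beside 293.5 ± 6.94 CPM, a ratio of 1.21. The share of HOXA13 in it was 31.4% in wild-type cells and 37.3% in mutant cells. HOXB gave 90.2 ± 8.55 CPM in the wild type and 90.7 ± 7.63 CPM in the mutant, with overlapping libraries and a ratio of 1.01. HOXB6 made up 2.45% of the HOXB sum in wild-type cells and 7.12% in mutant cells.

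The HOXC sum was 37.8, 33.4 and 34.1 CPM in the wild type and 26.9, 26.8 and 29.1 CPM in the mutant, a ratio of 0.786 with no overlap. Within HOXC, the share of HOXC10 was 13.2% in wild-type cells and 5.54% in mutant cells, that of HOXC11 4.37% and 0.127%, and that of HOTAIR 4.29% and 0%. HOXD gave 39.9, 41.1 and 38.1 CPM in the wild type and 46.3, 43.8 and 45.2 CPM in the mutant, a ratio of 1.14, also without overlap. HOXD13 made up 56.8% of the HOXD sum in wild-type cells and 38.1% in mutant cells, while HOXD8 stood at 20.5% and 29.9% and HOXD3 at 14.2% and 22.7%. These sums carry no test, since they add chosen members.

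**Figure D4:**
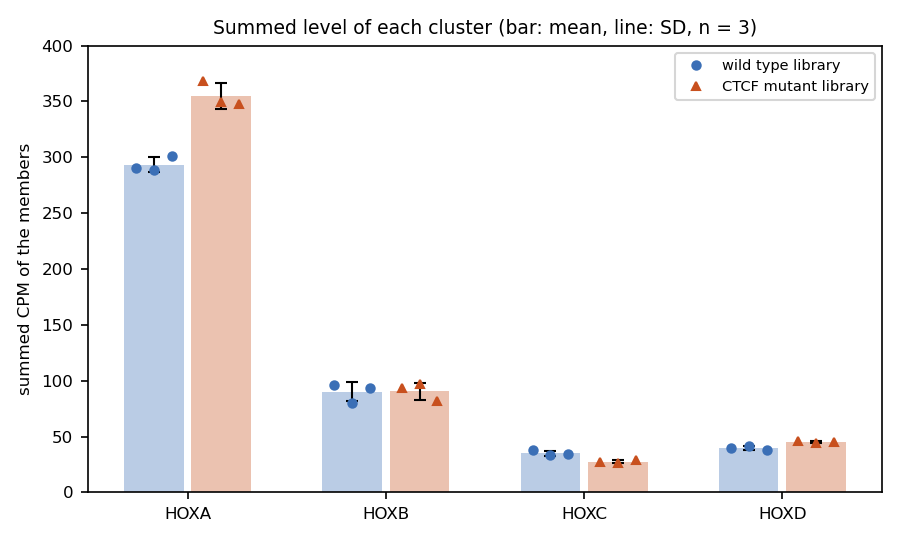
Summed CPM of the members of each cluster. Bars are means, lines the SD over 3 libraries, circles wild-type and triangles mutant libraries; HOXA lies at 293.5 and 355 CPM, HOXB at 90.2 and 90.7, HOXC at 35.1 and 27.6 and HOXD at 39.7 and 45.1 CPM in wild type and mutant.

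Compared per length, as CPM per kilobase of exon, the highest wild-type members were HOXA9 (19.1), HOXA13 (18.1), HOXA7 (13.6), HOXD13 (10.1) and HOXA11 (9.36). HOXA13 ranked first in the mutant at 26.1 CPM per kilobase, ahead of HOXA9 at 21.1. HOTTIP stood at rank 9 in the wild type (6.80) and rank 4 in the mutant (9.67), and HOXD13 at rank 4 and rank 8 (7.68 in the mutant). By paralogue number, HOX genes of groups 1 to 4 had 1 higher and 0 lower calls among 6 tested of 12. Groups 5 to 8 had 2 higher and 0 lower among 7 tested of 11, and groups 9 to 13 had 1 higher and 2 lower among 10 tested of 16. With 21.2% called over all tested genes and so few tested members, nothing about the paralogue groups can be read from these counts.

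In the authors' deposited table, which holds 39 of the members, 34 had an adjusted p. By the same threshold of 0.05 that table has 5 higher members (HOXA13, EVX1, HOXB6, HOXD3 and HOXD8) and 3 lower (HOXC10, HOXC11 and HOXD13), where 16.5% of all genes with an adjusted p in the authors' deposited table are under it. The authors' deposited table gives HOXC11 a log2 fold change of -5.22 with an adjusted p of 0.00115 and HOXD13 one of -0.40 with an adjusted p of 0.0408. HOTTIP and HOTAIR are among the 4 members matched by Ensembl identifier in the count table alone.

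Genes that work with the HOX proteins changed in both directions. Of 9 TALE homeobox cofactors, whose proteins bind DNA together with HOX proteins, 8 were tested, 2 were called higher, 3 lower and 3 were not called, beside 21.2% called over all tested genes. MEIS2 rose from 37.4 ± 3.88 to 55.6 ± 3.34 CPM (log2 fold change 0.57, edgeR adjusted p = 3.62e-05). PBX4 fell from 5.67 ± 0.586 to 2.49 ± 0.340 CPM (log2 fold change -1.17, edgeR adjusted p = 3.54e-04), and MEIS1 fell from 24.8 ± 2.14 to 18.7 ± 0.778 CPM (-0.40, adjusted p = 0.00829). The remaining lower call, PBX3 (log2 fold change -0.23, edgeR adjusted p = 0.0388), was lost when any 1 of the 6 libraries was left out and with DESeq2 (adjusted p = 0.103).

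Of 29 known regulators of HOX genes, covering CDX factors, Trithorax and Polycomb proteins and retinoic acid signalling, 24 were tested, 4 were called higher, 3 lower and 17 were not called, against the same 21.2% over all tested genes. KMT2A, the MLL methyltransferase that maintains HOX expression, rose from 138.9 ± 11.7 to 208.4 ± 27.2 CPM (log2 fold change 0.58, edgeR adjusted p = 1.46e-04). ASH1L, another Trithorax-type methyltransferase, rose from 74.3 ± 0.932 to 101.4 ± 5.71 CPM (0.45, edgeR adjusted p = 2.30e-05). MEN1, the menin partner of KMT2A, fell from 103.0 ± 4.59 to 75.0 ± 6.92 CPM (-0.46, edgeR adjusted p = 5.61e-05). CYP26A1, which breaks down retinoic acid, fell from 5.53 ± 0.985 to 2.08 ± 0.322 CPM (-1.41, edgeR adjusted p = 1.20e-04).

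Genes flanking the clusters were examined as well. None of the nearest tested neighbours was called by edgeR, and LNPK alone had an unadjusted p under 0.05 (0.0151): SKAP2 (log2 fold change -0.02) and HIBADH (0.12) at HOXA, TTLL6 (0.17) at HOXB, CALCOCO1 (-0.11) and SMUG1 (-0.12) at HOXC, and LNPK (-0.18, edgeR adjusted p = 0.0652) and MTX2 (-0.11) at HOXD. SKAP1 at HOXB had 1 wild-type and 2 mutant counts in all and was not tested. Of 37 flanking genes listed in all, 30 were tested, 3 were called higher and 4 lower, a share near the 21.2% called over all tested genes. CHN1 fell from 115.7 ± 7.17 to 69.5 ± 0.635 CPM (log2 fold change -0.74, edgeR adjusted p = 2.03e-08) and NFE2L2 rose from 75.1 ± 1.62 to 119 ± 2.98 CPM (0.67, adjusted p = 3.41e-08), on opposite sides of HOXD.

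Among 16 other noncoding genes of the clusters, 4 were tested, 1 was called higher and 1 lower, where 21.2% of all tested genes were called. HOTAIRM1, a noncoding RNA at the 3′ side of HOXA known from myeloid cells, had 171, 131 and 160 counts in the wild type and 117, 105 and 113 in the mutant. Its groups did not overlap, and it fell from 18.2 ± 1.78 to 12.9 ± 0.905 CPM (log2 fold change -0.49, edgeR adjusted p = 0.00553). HOXA10-AS rose from 2.79 ± 1.10 to 4.64 ± 0.461 CPM (0.74, edgeR adjusted p = 0.0363), but DESeq2 did not call it (adjusted p = 0.126), nor did edgeR without wild-type replicate 1 or 3 or mutant replicate 1 or 2 (adjusted p = 0.0598 to 0.175). Of 14 other homeobox genes of the Antennapedia class, 8 were tested and 0 were called by edgeR, DESeq2 or limma-voom, with 1 at an unadjusted p under 0.05.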

How the data were processed

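Polyadenylated RNA of 3 wild-type and 3 CTCF-mutant HAP1 libraries was measured. The submitters' processing notes name TopHat2 2.1.1, HTSeq and DESeq2 with genome build hg19; what each tool did, and with which strand option, is not given in the sources used here. Raw read counts per gene for all 6 libraries were deposited by the authors. Their table of mutant over wild type has, per the file headers, a deposited signal (mean counts over size factors), a log2 fold change with its error, a Wald score, a p-value with its adjusted form, and a mark of other kind. All 6 count columns were used and 0 were left out. The 5 closing totals (22.4 to 24.3% of reads per library) were set aside.

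Counts were fitted in R 4.3.3 with edgeR 4.0.16 (filterByExpr, 14835 of 25665 genes with at least 1 count; TMM factors 0.995 to 1.004; robust quasi-likelihood F test, two-sided; Benjamini-Hochberg; prior count 0.125), checked on simulated data. Standard errors come from the test statistic. DESeq2 1.42.0 and limma 3.58.1 served as alternatives. Symbols came from the authors' table for 39 members and by Ensembl identifier for 4. GENCODE v29 (GRCh38) gave order, exon length and overlap only. RefSeq (GRCh38.p14) gave promoter windows for 23 members.

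Members are named by cluster, except 1 member that is not reported here, as is 1 cofactor; up to 4 called genes of each accompanying list with the lowest adjusted p are named with values, plus the neighbours of each cluster. PBX3 was added after its values were seen. Members, lists and tests were chosen with earlier results of these data known. Floors (3 counts over a group) and 95% Clopper-Pearson intervals cover counting error only. No pair of libraries agreed within sampling noise.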

Additional observations from a re-analysis of the deposited data

How the results depend on the processing

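All 8 member calls held in all 104 refits that could change a p (8 members under 13 settings; another prior count changes none), the highest adjusted p being 0.0494 for HOXD13 without wild-type replicate 1. Members called higher numbered 6 throughout. Members called lower numbered 5 with no filter beyond 1 count and 3 to 4 without 1 library, the additions being HOTAIR, HOXC11 and HOXB4. Other noncoding genes called higher numbered 0 with DESeq2 and 0 to 1 without 1 library; those called lower numbered 2 with upper-quartile scaling, 2 with no filter and 1 to 2 without 1 library. Without 1 library, HOX regulators called lower numbered 3 to 5 and Antennapedia-class genes called lower 0 to 1. HOTAIR and HOXC11 were not tested in the main fit and could be called only in settings whose filter kept them. In those settings they passed mainly through their wild-type libraries, so these added calls are a description. Tested members numbered 41 with no filter beyond 1 count and 26 to 28 without 1 library, beside 25 in the main fit. The cause of the remaining shifts was not tested. Signs turned for members near 0: HOXA7 was -0.0070 with upper-quartile scaling, and without 1 library HOXA7 ran from -0.077 to 0.080, HOXA10 from -0.072 to 0.025, HOXA11 from -0.032 to 0.048, HOXC6 from -0.11 to 0.41 and HOXC13 from -0.051 to 0.15. The ratios of cluster sums ran from 1.19 to 1.23 (HOXA), 0.954 to 1.05 (HOXB), 0.765 to 0.818 (HOXC) and 1.11 to 1.16 (HOXD). Same-numbered libraries correlated at 0.10, 0.11 and -0.14 in their deviations and were not taken as pairs: wild-type replicates 2 and 3 correlated best with another number. With a replicate block the same 6 members were called higher and 2 lower, among 3574 called genes rather than 3142. DESeq2 called 2289 genes in all. Depth limits the 18 untested members, of which 11 had more than 3 counts in all.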

Other observations

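Other transcripts inside the clusters were examined as well. These genes were picked by their place after the data were seen, so their values are a description. Of 39 annotated genes inside the 4 clusters that are not members, 5 were tested, 2 were called higher and 1 lower, where 21.2% of all tested genes were called; HOXA10-AS and HOTAIRM1 are the calls already given above. ENSG00000253508, an unnamed noncoding gene between HOXA11-AS and HOXA13, had 5, 6 and 8 counts in the wild type and 27, 16 and 20 in the mutant. It rose from 0.762 ± 0.244 to a mutant level of 2.42 ± 0.572 CPM (SD over 3 libraries; log2 fold change 1.68, SE 0.356, edgeR adjusted p = 0.00146), beside the higher HOXA13 and HOTTIP. It passed the count filter only through the mutant, where all 3 libraries reached 1.20 CPM and 0 wild-type libraries did.

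HAGLR, an antisense noncoding gene that overlaps HOXD3 and HOXD1 on the other strand, had 10, 7 and 4 counts in the wild type and 0 in all 3 mutant libraries. Against 3 counts over the mutant group, and with the wild-type counts taken as exact, HAGLR was at least 7.14-fold lower. It did not pass the filter of the main test and was called lower by edgeR when all genes with at least 1 count were tested (adjusted p = 3.07e-05). HAGLR entered that test only through its wild-type counts, so the call adds nothing to the counts given here. HOXB-AS1 stood just outside the threshold (log2 fold change -0.59, edgeR adjusted p = 0.0548).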
